A study of Mus musculus with 3 samples.

Results

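Transcripts of 10 genes that build lymphoid tissue were followed in the lungs of 3 mice. They are the chemokines Cxcl13, Ccl19, Ccl21a and Cxcl12, their receptors Cxcr5, Ccr7 and Cxcr4, the lymphotoxins Lta and Ltb, and the receptor Ltbr. The members were listed by name, and all 10 were found among the 53342 genes of the count table. The mice were male C57Bl/6 animals whose age is not given in the labels. Each received particles of Mycobacterium abscessus into the trachea, a challenge meant to produce granulomas. The particles came in 50 µL and stood for 1000000 bacteria. Each then received 5 µg of MIA602, which blocks the receptor of growth hormone-releasing hormone, under the skin every day for 3 weeks. Challenge and drug were common to all 3 mice, which form 1 group, and lungs without either were not analysed here, so nothing below measures an effect of the drug or of the particles. The mice are called 4, 5 and 6 after the last digit of their titles.

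Lymphoid tissue is laid out by stromal cells that secrete chemokines. CXCL13 draws B cells, which carry CXCR5, into follicles, and CCL19 and CCL21 draw T cells and mature dendritic cells, which carry CCR7. Lymphocytes present lymphotoxin beta on their surface in a complex with lymphotoxin alpha, and its receptor on stromal cells works through the kinase NIK (Map3k14) and the NF-kB subunits p100 (Nfkb2) and RelB to switch on these chemokines. CXCL12 and CXCR4 retain leukocytes and their precursors in tissues. In chronically inflamed lungs the same signals are known from ectopic lymphoid tissue.

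Whole-lung libraries held 43845715, 35674761 and 31579465 counts in mice 4, 5 and 6, and 17636 genes passed the filter on low counts, all 10 members among them. The fewest counts of any member in any mouse were 207. Levels are in CPM, counts scaled to a library of 1000000 counts with TMM factors (a scaling that assumes most genes do not differ). The type 2 cell surfactant gene Sftpc stood at 14532, 20177 and 18402 CPM in mice 4, 5 and 6, and marks lung epithelium. The library of mouse 4 stood apart in skeletal muscle genes, whose median was 768, 281 and 232 CPM in mice 4, 5 and 6. It stood apart the other way in airway genes, which summed to 9349, 24975 and 22110 CPM, mostly from the club cell gene Scgb1a1 at 7643, 21691 and 19127 CPM.

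All 10 genes were detected in each mouse. Per kilobase of exon, the scale on which genes can be set side by side, the order of mean levels was Ccl21a, Ltb, Cxcr4, Ltbr, Ccl19, Cxcl13, Cxcl12, Ccr7, Lta and Cxcr5. Ccl21a stood at 95.7 ± 8.12 CPM per kilobase (SD, n = 3), above 97.2% of the 17616 genes with a length. Cxcr5 stood at 5.36 ± 1.26, above 54.7% of them. Of the 9 pairs of neighbours in that order, 4 had ranges over the mice that did not overlap: Cxcr4 above Ltbr, Cxcl13 above Cxcl12, Cxcl12 above Ccr7, and Ccr7 above Lta. The other neighbours overlapped, and Ltb lay above Cxcr4 in only 1 of 3 mice. The order depends on the length used. With the longest transcript Cxcl12 stood at 37.4 CPM per kilobase, above Cxcl13 at 36.4, and no other neighbours changed places. With the shortest coding transcript Cxcr4 came first at 141, Ltb next at 133, Cxcl12 at 112 and Ccl21a at 95.7, and Cxcr5 stood at 49.9, no longer last. Both of these orders were computed after the data were seen.

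**Figure D1:**
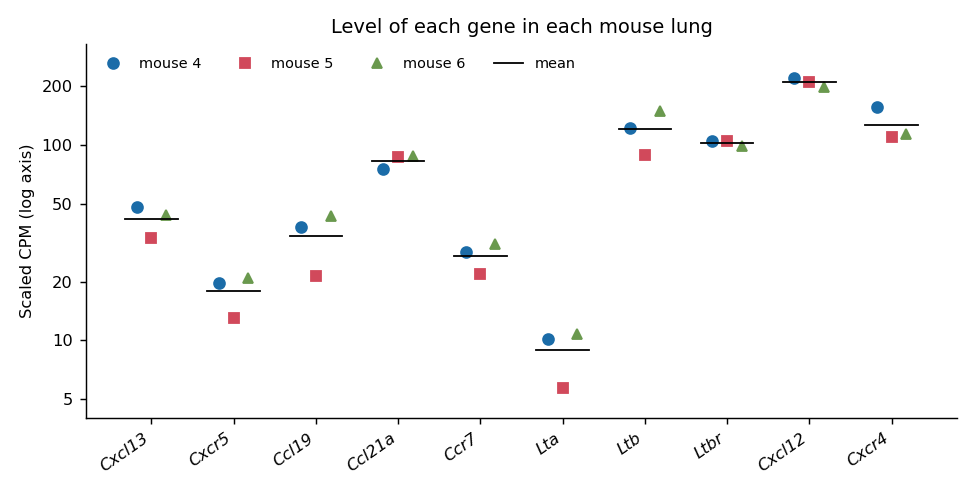
Scaled CPM (log axis) of the 10 genes in each mouse, with the mean over the 3 mice as a line. Mouse 5 is the lowest for Cxcl13, Cxcr5, Ccl19, Ccr7, Lta, Ltb and Cxcr4, while Ltbr and Cxcl12 differ little between mice.

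The B cell chemokine Cxcl13 (ENSMUSG00000023078, chromosome 5, 95956951 to 95961068 on GRCm38) had 2075, 1216 and 1392 counts, or 48.2, 33.6 and 43.9 CPM in mice 4, 5 and 6, with a mean of 41.9 ± 7.47 (SD, n = 3). Mouse 5 was lowest, and mice 4 and 6 were close to each other. Its receptor Cxcr5 (ENSMUSG00000047880, chromosome 9, 44511787 to 44561877), which brings B cells and follicular helper T cells to the follicle, had 19.6, 13.1 and 20.9 CPM. Mouse 5 was again lowest. Cxcr5 overlaps Bcl9l on the opposite strand over 110 exonic bases, 3.3% of its exon length. Whether counting used strand is not stated in what was at hand, and without it reads of that stretch cannot be told apart.

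Cxcl13 and Ccl19 are both known in mouse as targets of RelB downstream of the lymphotoxin receptor, as is Ccl21a. Their promoters are shown as those of the named targets. Each is the 250 bases before the RefSeq start (GRCm38.p6), with a loose NF-kB form in capitals (GGG and CC with any 5 bases between, on either strand). They lie at chr5:95956689-95956938 (plus strand), chr4:42756366-42756615 (minus strand) and chr4:42773992-42774241 (minus strand).
Cxcl13: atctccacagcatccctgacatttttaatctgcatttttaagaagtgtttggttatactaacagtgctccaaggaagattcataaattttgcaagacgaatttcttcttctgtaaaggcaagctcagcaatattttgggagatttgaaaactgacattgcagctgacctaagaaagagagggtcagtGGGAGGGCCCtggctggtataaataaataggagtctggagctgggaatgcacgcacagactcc
Ccl19: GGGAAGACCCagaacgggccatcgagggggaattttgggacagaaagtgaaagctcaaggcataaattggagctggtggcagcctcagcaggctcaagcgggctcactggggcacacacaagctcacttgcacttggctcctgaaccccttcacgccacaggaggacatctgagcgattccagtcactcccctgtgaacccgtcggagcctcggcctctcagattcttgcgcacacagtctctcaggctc
Ccl21a: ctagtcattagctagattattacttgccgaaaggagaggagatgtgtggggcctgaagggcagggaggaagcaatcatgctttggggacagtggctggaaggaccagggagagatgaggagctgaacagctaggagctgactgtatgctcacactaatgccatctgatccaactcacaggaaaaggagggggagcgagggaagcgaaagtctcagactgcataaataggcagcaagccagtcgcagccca
The Cxcl13 match began 63 bases before the RefSeq start, with TATAAA or its complement at 46 bases, and the Ccl19 match began 250 bases before it. Most of the Ccl19 window lies inside the gene as GENCODE places it (42754525 to 42756577), because the RefSeq start lies downstream of the GENCODE start. Measured from the GENCODE start, the Ccl19 match is closer than 250 bases. The Ccl21a window held no match. Among the others, Ltbr (112 bases before the start) and Cxcl12 (36 bases) held 1 match each and Cxcr4 none. Ltb held 4 matches, at 87, 40, 39 and 38 bases, and Lta 2 that overlap, at 76 and 75 bases. Of the 10 genes, 8 had a promoter in the RefSeq table, and 6 of these 8 held the motif, against 45.8% of all 32851 promoters. Each promoter counts once, whatever its number of matches. TATAAA on either strand was in 3 of the 8, against 12.4% of all. A match describes the letters in the window and is not a binding site.

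Of the CCR7 ligands, Ccl21a (ENSMUSG00000094686, chromosome 4, 42772860 to 42773993), made by lymphatic endothelium and reticular stroma, had 75.2, 86.6 and 88.0 CPM in mice 4, 5 and 6. Mouse 4 was lowest, and mice 5 and 6 were nearly equal. Ccl19 (ENSMUSG00000071005, chromosome 4, 42754525 to 42756577), made by T zone stroma and mature dendritic cells, had 38.2, 21.4 and 43.2 CPM. Mouse 5 lay well under the other two. The pair of genes are neighbours, 16.3 kb apart, and their levels ran in different orders over the mice. Their receptor Ccr7 (ENSMUSG00000037944, chromosome 11, 99144196 to 99155077) had 28.5, 21.96 and 31.3 CPM, lowest in mouse 5.

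Both ligand genes have near-identical copies on chromosome 4, which limits what their counts measure. Of all 50-base windows in annotated transcripts, 52.0% for Ccl19 and 71.6% for Ccl21a also occur in another gene, against 0% for the other 8 members. The 4 copies of Ccl21a (Ccl21b, Gm10591, Gm13304 and Gm21541) held 0, 4 and 3 counts in sum in mice 4, 5 and 6. The 4 copies of Ccl19, examined after their values were seen, held 280, 153 and 272, which is 15.7% of all counts of Ccl19 and its copies. The pseudogene Ccl19-ps1 had 133, 68 and 138 of these and Gm12407, another pseudogene, 143, 84 and 134. Both were lowest in mouse 5, as Ccl19 was. The coding sequence of Ccl19 (327 bases, stop codon included) is shown in its first 300 bases beside Ccl19-ps1 (chromosome 4, 41921405 to 41923020), and Ccl21a (402 bases) beside Ccl21b (chromosome 4, 42255767 to 42256432), to show how few bases separate each pair. Sequences are those of GENCODE M21 transcripts in their own sense, and capitals mark the bases that differ, all of which lie in the stretch shown.
Ccl19: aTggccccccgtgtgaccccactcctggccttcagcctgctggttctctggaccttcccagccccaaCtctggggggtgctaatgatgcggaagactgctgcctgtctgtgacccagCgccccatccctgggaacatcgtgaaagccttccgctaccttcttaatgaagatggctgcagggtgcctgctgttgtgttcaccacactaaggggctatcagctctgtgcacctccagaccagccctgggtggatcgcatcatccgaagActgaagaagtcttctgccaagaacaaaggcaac
Ccl19-ps1: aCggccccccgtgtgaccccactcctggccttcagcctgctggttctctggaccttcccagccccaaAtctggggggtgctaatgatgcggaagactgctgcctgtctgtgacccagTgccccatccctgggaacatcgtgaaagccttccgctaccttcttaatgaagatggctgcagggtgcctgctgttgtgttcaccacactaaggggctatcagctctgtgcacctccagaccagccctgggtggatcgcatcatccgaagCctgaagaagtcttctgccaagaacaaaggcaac
Ccl21a: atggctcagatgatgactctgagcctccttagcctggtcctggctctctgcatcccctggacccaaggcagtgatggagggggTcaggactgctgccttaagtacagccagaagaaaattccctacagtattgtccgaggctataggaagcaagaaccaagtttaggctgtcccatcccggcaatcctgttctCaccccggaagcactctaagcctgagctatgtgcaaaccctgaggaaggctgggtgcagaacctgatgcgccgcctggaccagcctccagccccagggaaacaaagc
Ccl21b: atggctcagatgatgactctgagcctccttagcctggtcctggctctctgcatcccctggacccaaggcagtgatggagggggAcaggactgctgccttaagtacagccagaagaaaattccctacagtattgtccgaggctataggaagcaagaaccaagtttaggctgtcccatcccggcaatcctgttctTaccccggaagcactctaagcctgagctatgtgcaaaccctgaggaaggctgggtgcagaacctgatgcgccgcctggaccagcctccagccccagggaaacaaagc
Counted from the first base of the Ccl19 start codon, Ccl19-ps1 carries T2C, which removes that codon, and C68A, C118T and A267C, for 98.8% identity. The longest stretch without a difference is 148 bases. Ccl21b carries T84A and C194T against Ccl21a, for 99.5% identity with an unbroken run of 208 bases, and Gm13304 carries the same 2 differences. The counting of reads that match several places is not described in the labels, so the levels of Ccl19 and Ccl21a, and which copy a read came from, are uncertain.

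The lymphotoxin ligands differed most between mice beside Ccl19. Ltb (ENSMUSG00000024399, chromosome 17, 35194439 to 35196320), the membrane-anchoring subunit, had 123, 88.9 and 149 CPM in mice 4, 5 and 6. All 3 mice were apart, with mouse 6 highest and mouse 5 lowest. The microRNA gene Mir6973a inside Ltb had 9, 4 and 11 counts. Lta (ENSMUSG00000024402, chromosome 17, 35203165 to 35205351), the subunit that is also secreted alone, had 10.2, 5.72 and 10.8 CPM. Mice 4 and 6 were alike and mouse 5 was low. Tnf (35199381 to 35202007), which lies between them in the 10.9 kb that hold the 3 genes, had 43.0, 27.0 and 41.4 CPM, also lowest in mouse 5. The receptor Ltbr (ENSMUSG00000030339, chromosome 6, 125306571 to 125313885), carried by stromal and myeloid cells, had 105, 105 and 98.8 CPM, a mean of 103 ± 3.63 (SD, n = 3). It varied least of the 10 genes, with a coefficient of variation of 3.53%, against 33.4% for Ccl19 and 31.1% for Lta.

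Cxcl12 (ENSMUSG00000061353, chromosome 6, 117168535 to 117181367), a stromal and endothelial chemokine, had 222, 210.1 and 199 CPM in mice 4, 5 and 6, a narrow range. Its receptor Cxcr4 (ENSMUSG00000045382, chromosome 1, 128588199 to 128592293), present on most leukocytes, had 157, 110.0 and 114 CPM. Here mouse 4 was high and mice 5 and 6 were alike. The 5 neutrophil genes summed to 258, 227 and 171 CPM in mice 4, 5 and 6. Of these, Csf3r was high in mouse 4 alone (117, 79.8 and 79.3 CPM) and S100a8 was low in mouse 6 (70.5, 67.5 and 42.6). S100a9 (61.6, 69.3 and 42.1 CPM), Retnlg (8.75, 9.71 and 6.50 CPM) and Ly6g (4, 10 and 4 counts) were highest in mouse 5. The part of neutrophil transcripts in the Cxcr4 levels was not tested.

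Between mouse 5 and the other mice, counting error was smaller than the differences for most members. In log2 ratios of scaled CPM with exact 95% intervals, which cover counting error only and compare 2 libraries, Ccl19 stood at −0.84 (−0.96 to −0.71) in mouse 5 over mouse 4 and at −1.02 (−1.14 to −0.89) in mouse 5 over mouse 6. Lta stood at −0.83 (−1.08 to −0.59) and −0.91 (−1.17 to −0.66) in the same comparisons. Ltb stood at −0.47 (−0.53 to −0.41) and −0.74 (−0.81 to −0.68). The ratio of mouse 5 to mouse 6 was the larger one for all 3 of these genes. For Cxcr5 the ratios were −0.59 and −0.68, for Ccr7 −0.37 and −0.51, and for Cxcl13 −0.52 and −0.38. In these 6 genes both intervals lay below 0. The share of all genes that do so was not computed. At these counts small ratios can also exclude 0, as for Cxcl12 in mouse 5 over mouse 4 (−0.08, −0.12 to −0.04). For Ltbr the ratios were −0.01 and 0.08, for Cxcl12 −0.08 and 0.08, and for Ccl21a 0.21 and −0.02. Cxcr4 was lower in mouse 5 than in mouse 4 (−0.52, −0.57 to −0.46), and its interval against mouse 6 held 0 (−0.05, −0.12 to 0.01).

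**Figure D2:**
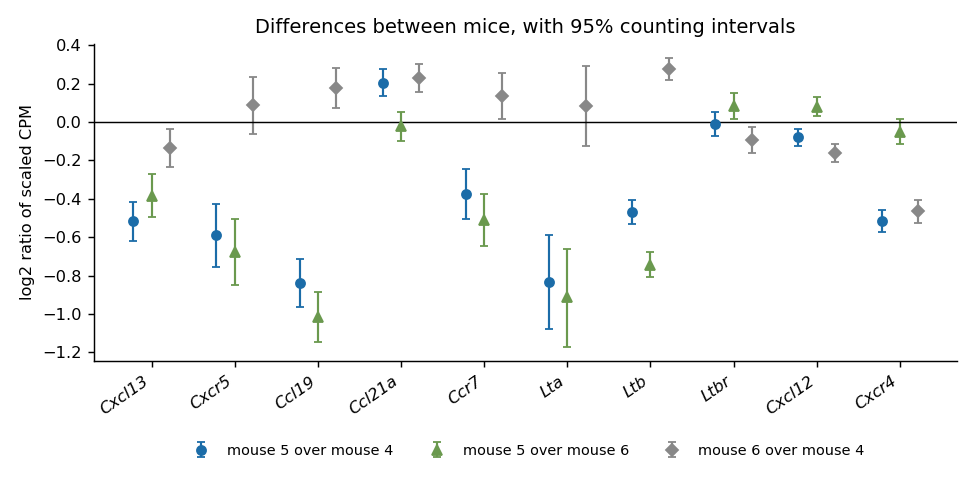
Log2 ratio of scaled CPM between each pair of mice for the 10 genes, with exact 95% intervals for counting error. Ratios of mouse 5 to mice 4 and 6 lie below 0 for Cxcl13, Cxcr5, Ccl19, Ccr7, Lta and Ltb, and close to 0 for Ltbr and Cxcl12.

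Of the 10 members, 7 were lower in mouse 5 than in both other mice, against 36.8% of all 17636 genes tested. Mouse 5 was singled out after the data were seen, here and for the gene lists below. The shares of all genes beside these counts therefore describe the libraries and are not a test. By over 1.5-fold, 4 of 10 were lower in mouse 5 than in mouse 6 (Cxcr5, Ccl19, Lta and Ltb), against 5.5% of all genes, and 3 of 10 lower than in mouse 4 (Cxcr5, Ccl19 and Lta), against 8.2%. None was higher by that much in mouse 5, against 4.46% of all genes relative to mouse 6 and 7.61% relative to mouse 4. The median log2 ratio of the members was −0.49 for mouse 5 over mouse 4 and −0.45 for mouse 5 over mouse 6, where the median over all genes tested was 0.00 in both. At any size of difference, 9 of 10 were lower in mouse 5 than in mouse 4, against 50.5% of all genes. With mouse 4 left out, a choice made after the data were seen, 8 of 10 were lower in mouse 5 than in mouse 6, against 49.8% of all genes. Mice 6 and 4 differed by under 1.5-fold at every member. Most genes did likewise, with 5.3% of all genes lower and 5.48% higher by over 1.5-fold in mouse 6 than in mouse 4. The median log2 ratio of the members was 0.08 for mouse 6 over mouse 4, and 4 of 10 were lower in mouse 6, against 49.7% of all genes. In bulk lung, fewer cells of a type and less RNA per cell cannot be told apart.

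Whether a member varied more between mice than genes of like abundance was asked in edgeR's quasi-likelihood fit over all 17636 genes, by an F test of each gene's residual spread against the fitted trend. With Benjamini-Hochberg adjustment, 0 of 10 members passed a threshold of 0.05, and 0 of all genes did (0%). The trend and the scatter of genes around it were estimated from these same genes, which largely sets the share with p under 0.05. The lack of calls therefore does not show that the members vary as other genes do. Before adjustment, p was under 0.05 for 2 of 10 members and for 867 genes (4.92%). These were Ccl19, whose spread was 4.07 above the trend in log2, and Ltb at 3.11, each with an adjusted p of 0.955 in edgeR's quasi-likelihood test. Lta stood at 2.52, Cxcr5 at 2.46, Cxcr4 at 2.37, Cxcl13 at 2.20 and Ccr7 at 1.93. Spread above the trend was found in 8 of 10 members and in 44.1% of all genes, and spread of at least 4 times the trend in 6 of 10 members and in 11.7% of all genes. Ccl21a lay on the trend at 0.07, while Cxcl12 and Ltbr lay below it at −1.55 and −2.55. Mouse 5 set most of these values: without it Ccl19 stood at 0.53, Lta at −3.13, Cxcr5 at −2.02, Ccr7 at −0.39 and Cxcl13 at −0.24, while Ltb stood at 1.96 and Cxcr4 at 3.50. Cxcr4 depended on mouse 4, without which it stood at −4.02. Limma likewise called 0 genes (0%), with p under 0.05 for 2 members and 879 genes (4.98%), and DESeq2 0 (0%), with 0 members and 207 genes (1.17%). With no filter on low counts edgeR called 629 of 30751 genes (2.05%), Ccl19 among them (adjusted p = 0.000453), and p was under 0.05 for 6 members against 8.02% of those genes. Without mouse 4 it called 13 genes, none of them a member.

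**Figure D3:**
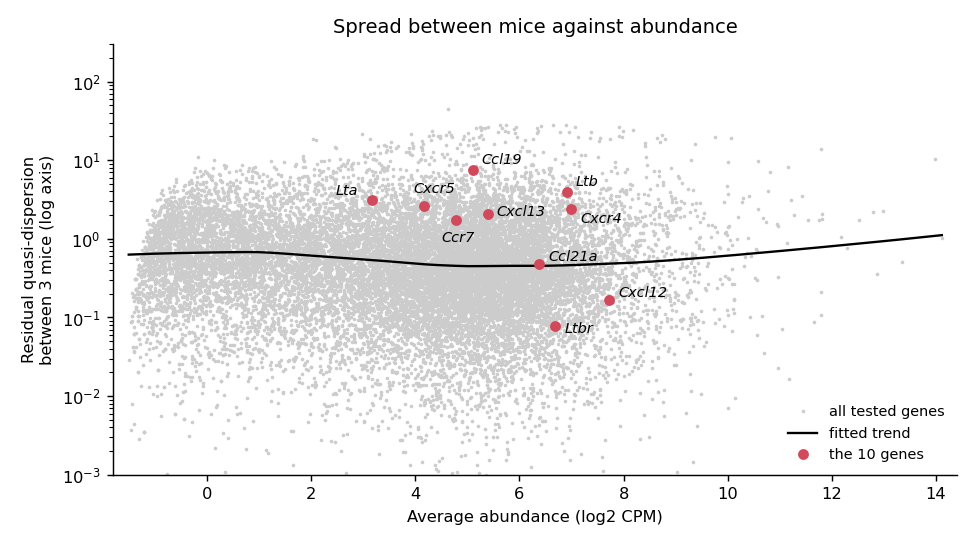
Residual quasi-dispersion between the 3 mice (log axis) against average abundance for all tested genes in grey, with the fitted trend as a line and the 10 genes in red. Ccl19 and Ltb lie highest above the trend and Ltbr lowest below it, and 38 genes under 0.001 are not drawn.

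Ratios between partners within a mouse are free of library scaling. In CPM per kilobase, Cxcl13 exceeded Cxcr5 by 7.11, 7.46 and 6.09 times in mice 4, 5 and 6, and mouse 5 did not stand apart. Ccl21a exceeded Ccr7 by 6.00, 8.97 and 6.41 times, and Ccl19 exceeded Ccr7 by 3.06, 2.22 and 3.15 times. The balance of the CCR7 ligands differed, with 1.96, 4.04 and 2.03 times as much Ccl21a as Ccl19. Mouse 5 stood apart in this ratio, whose log2 mean was 1.34 ± 0.59 (SD, n = 3). Ltb exceeded Lta by 11.0, 14.2 and 12.6 times. Ltb exceeded Ltbr by 1.82, 1.32 and 2.34 times, the lowest again in mouse 5. Cxcl12 stood at 0.312, 0.422 and 0.386 of Cxcr4. That ratio depends on the length used: the exon union of Cxcl12 is 8176 bases but its shortest coding transcript 1878, and the log2 mean was −1.43 with the union and −0.31 with shortest coding transcripts, a choice made after the data were seen. Without division by length it turned to 0.74. The excess of Cxcl13 over Cxcr5, 2.78 in log2, turned to −0.44 with the shortest coding transcripts, since that of Cxcr5 has 358 bases against an exon union of 3332. Each of the 7 ratios had the same direction in 3 of 3 mice, and an exact sign-flip test, run two-sided, returned p = 0.25 for each (0.25 after Benjamini-Hochberg adjustment over the 7), the smallest it can give with 3 mice, so none could pass.

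**Figure D4:**
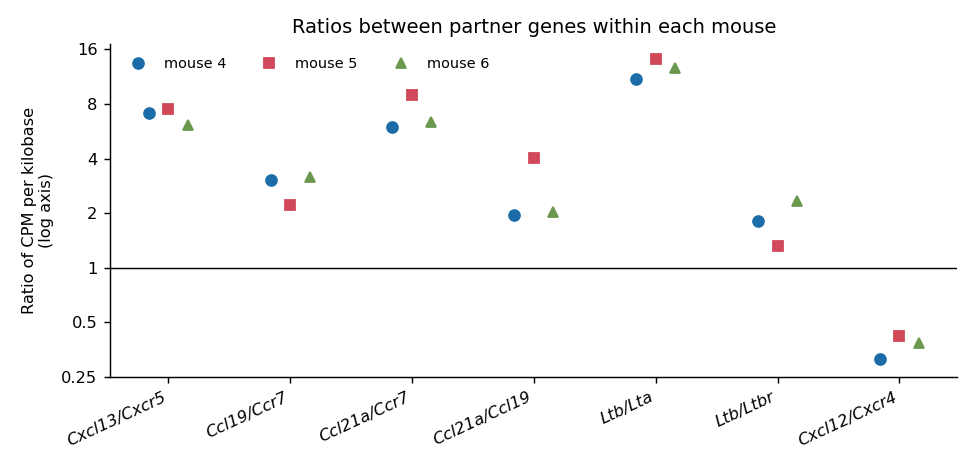
Ratio of CPM per kilobase of exon (log axis) between partner genes in each mouse, with a line at 1. Mouse 5 stands apart for Ccl21a over Ccl19, at 4.04 against 1.96 and 2.03 in mice 4 and 6.

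The list of lymphotoxin and noncanonical NF-kB signalling holds related ligands and receptors as well as the intracellular arm of the lymphotoxin receptor. All 13 genes had at least 1 CPM in each mouse, and 11 of 13 were lower in mouse 5 than in both others (36.8% of all genes tested). Their median log2 ratio was −0.33 for mouse 5 over mouse 4 and −0.33 over mouse 6. Tnfrsf1b and Tnfrsf1a, the TNF receptors, averaged 215 ± 52.7 and 173 ± 11.9 CPM (SD, n = 3), Nfkb2 132 ± 23.1, and Birc3 (cIAP2), part of the complex that degrades NIK, 90.7 ± 7.97. Nfkb2 had 148, 105 and 142 CPM and Relb 86.2, 65.3 and 86.6, lowest in mouse 5 for both. Map3k14, the kinase itself, had 29.6, 28.7 and 34.6 CPM, and Tnfsf14 (LIGHT), another ligand of this receptor, 5.15, 3.87 and 5.30. LIGHT was lowest in mouse 5 too, while mouse 5 differed little from mouse 4 in Map3k14.

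The list of other lymphoid chemokines, scavengers and homing receptors had 11 of 11 genes at 1 CPM or more in each mouse. Of these, 8 of 11 were lower in mouse 5 than in both others (36.8% of all genes tested). Cxcl16, a chemokine for Cxcr6-bearing T cells, averaged 511 ± 105 CPM, S1pr1, which guides lymphocyte exit, 140 ± 19.5, and Ackr3, a scavenger of CXCL12, 30.3 ± 3.24. Ackr4, which scavenges the CCR7 ligands, ran the other way, with 3.27, 4.84 and 2.05 CPM and the highest level in mouse 5. Of 9 organiser and survival cytokine genes, 8 were lower in mouse 5 than in both others (36.8% of all genes tested). The exception was Il7, a T cell survival cytokine made by stroma, at 4.25, 5.09 and 4.57 CPM. The highest CPM in this list were those of Il21r (66.8 ± 16.9), Tnfsf13b (BAFF, 57.2, 53.5 and 58.3 in mice 4, 5 and 6), Il7r (28.4 ± 2.88) and Cxcr3 (21.3 ± 5.01).

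Markers of B cells, T cells and mature dendritic cells, which carry Cxcr5 or Ccr7, were mostly lowest in mouse 5. There, each of 8 B cell genes and each of 8 T cell genes lay under its level in mice 4 and 6 (36.8% of all genes tested), with median log2 ratios to mouse 6 of −0.52 and −0.60 and to mouse 4 of −0.37 and −0.26. Summed over the list, B cell genes had 376, 282 and 425 CPM and T cell genes 308, 235 and 356 CPM in mice 4, 5 and 6. Mature dendritic cell genes summed to 393, 303 and 438 CPM, with 6 of 7 lowest in mouse 5 and the exception Ccl17. The order of mouse 6, mouse 4 and mouse 5 in these sums was also that of Cxcr5, Ccl19, Ccr7, Lta and Ltb, though for Cxcr5 and Lta the counting interval of mouse 6 over mouse 4 held 0. Cd79a and Cd3e, chains of the B and T cell antigen receptors, had 102, 68.3 and 115 CPM and 61.8, 42.2 and 66.2 CPM. Not every gene of these lists ran in that order. The B cell gene Ms4a1 (36.7, 28.5 and 31.9 CPM) and the T cell gene Cd28 (12.5, 10.5 and 11.2 CPM) were highest in mouse 4. Cr2 of the B cell list and Il4i1 of the dendritic cell list were also highest there, Cr2 by little over mouse 6. The part of these cell types in the levels of the members was not tested.

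Lists of stromal cells did not move together. The counts below stand beside 36.8% of all genes tested that were lower in mouse 5 than in both others. In mouse 5, 5 of 7 follicular dendritic cell genes lay under both other mice, with median log2 ratios of −0.35 to mouse 4 and −0.12 to mouse 6. Among these 5, Cr2 and Fcer2a are also in the B cell list and Tnfsf13b in that of organiser and survival cytokines, so they are counted again here. Of the tested high endothelial venule genes, 3 of 6 lay under both other mice, not far from the share of all genes, with medians of −0.29 and −0.08. None of 6 lymphatic endothelial genes and none of 7 reticular and adventitial fibroblast genes was lower in mouse 5 than in both others, with median log2 ratios of 0.07 and 0.22 for mouse 5 over mouse 4 and 0.20 and 0.23 over mouse 6. Blood endothelial genes summed to 1140, 1621 and 1193 CPM, highest in mouse 5, and 0 of 5 were lower there. Alveolar epithelial genes summed to 22480, 30581 and 26896 CPM, also highest in mouse 5. Their part in the levels of the members was not tested either.

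**Figure D5:**
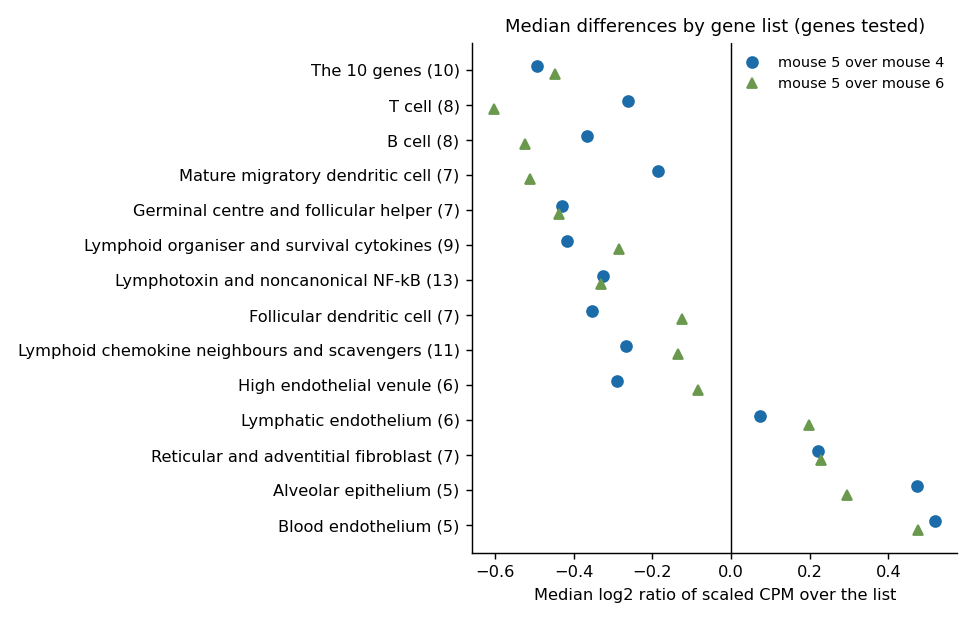
Median log2 ratio of scaled CPM over the gene lists drawn, for mouse 5 over mouse 4 and over mouse 6, with the number of tested genes in brackets. The thymocyte, neutrophil, airway and skeletal muscle lists are not drawn. The 10 genes, T cell and B cell lists lie below 0 in both ratios, as do those of follicular dendritic cells and high endothelial venules, and the blood and lymphatic endothelial, fibroblast and alveolar lists lie above 0 in both.

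Genes in the lists of lymphoid structures ranged widely in level. Whether such structures were present in these lungs was not tested. Of 7 genes of high endothelial venules, the vessels by which lymphocytes enter lymph nodes, the adhesion molecules Icam1 and Vcam1, which many other cells make, averaged 545 ± 24.5 and 138 ± 17.5 CPM and the glycosyltransferase genes Gcnt1 and Fut7 14.6 ± 1.76 and 3.90 ± 0.786. Among genes chosen after their values were seen, Glycam1 had 22, 4 and 4 counts in mice 4, 5 and 6, and Madcam1 36, 18 and 11. Bcl6, a factor of germinal centre and follicular helper cells that other cells also make, averaged 57.4 ± 8.78 CPM, S1pr2 35.2 ± 2.64 and Icos 20.4 ± 3.66. Of 7 follicular dendritic cell genes, Mfge8, Clu, Serpine2 and Enpp2 had the highest CPM, at 304 ± 36.0, 287 ± 51.7, 138 ± 3.23 and 87.3 ± 14.1 CPM, all of which other lung cells make. Of 6 thymocyte genes, Cd1d1 averaged 57.9 ± 12.2 CPM and Themis 8.35 ± 1.32. Dntt had 20, 15 and 21 counts in mice 4, 5 and 6 and Rag1 6, 2 and 3. Ptcra had 0, 0 and 0 counts, where a count of 0 allows up to 3, and Rag2 0, 0 and 1.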

How the data were processed

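RNA of 3 mouse lungs, 1 library per mouse, was prepared with a Nugen Universal mRNA kit, as the labels' protocols state. Per the submitters' processing notes, the authors used STAR 2.5.2a with mm10, after bcl2fastq 2.17 and Trim Galore 0.6.2. Which tool, annotation and strand setting made the counts is not given in the sources used here. The authors deposited raw counts by Ensembl gene, not normalized. GENCODE M21 of the same build gave symbols, 1-based coordinates and exon lengths, and matched 53237 of 53342 identifiers (99.8%). The labels number the mice 4, 5 and 6 and say nothing of litter, cage or batch.

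TMM factors for the CPM came to 0.982, 1.01 and 1.004 in mice 4, 5 and 6, where 1 count equals 0.0232, 0.0277 and 0.0315 CPM. Spread between mice was tested in edgeR 4.0.16 (R 4.3.3; filterByExpr, legacy quasi-likelihood fit, robust, intercept alone, 3.88 prior degrees of freedom), with limma 3.58.1 on log2(CPM + 0.5) and DESeq2 1.42.0 as alternatives. The edgeR step was tested on simulated data with 1 spread common to all genes and larger shifts than any member showed. That setting differs from these data, so the simulation does not measure what differences the test could find here. Intervals are exact binomial at 95%; reads without molecular identifiers are not independent molecules, so these cover counting error only. Python 3.11.15 and scipy 1.17.1 were used. Other scalings, filters, lengths, summed copies and leaving out each mouse were tried.

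The members and the 17 gene lists were chosen with earlier results of these data known. Named are all members, up to 4 genes of highest mean CPM per list, list genes with 3 or fewer counts in each mouse, the copies of Ccl21a and overlapping genes. Tnf, Relb, Map3k14, Tnfsf14, Ackr4, Il7, Ccl17, Glycam1, Madcam1, Cr2, Ms4a1, Cd28, Ly6g and the copies of Ccl19 were chosen after their values were seen. Some list genes are not reported here by name.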

Additional observations from a re-analysis of the deposited data

How the results depend on the processing

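Mean levels of the 10 genes moved by less than the spread between mice under every scaling tried and under summed copies. With 1 of 3 mice left out they cannot move by more than that, and shifted by between −13.1% and 18.8%. Summing copies, a choice made for Ccl19 after the data were seen, raised Ccl19 by 18.8% and Ccl21a by 0.0821%. The count of genes with spread above the trend, 0 as reported, was 629 with no filter on low counts (more genes tested, another trend), with 1 member, Ccl19, called (log2 spread over trend 3.66), and between 0 and 13 when 1 mouse was left out, with no member called. Of the 7 partner ratios, Cxcl12 to Cxcr4 turned to 0.74 in log2 without division by length and Cxcl13 to Cxcr5 to −0.44 with shortest coding transcripts, both by the lengths alone. The mean log2 of the other 5 kept its direction under all length, copy and leave-one-out settings, with the least margin for Ltb to Ltbr without division by length (0.19). No paired analysis was possible because the samples form 1 group. With 3 mice the sign-flip test cannot go below 0.25, and levels of Glycam1 and Madcam1 rest on few counts.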
